A study of Mus musculus with 15 samples.

Results

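Oscillospiraceae are a family of anaerobic bacteria of the class Clostridia that live in the hindgut of mice and people. Their members in stool were followed here as amplicon sequence variants (ASVs), which are distinct 16S rRNA gene sequences that stand for strains or groups of close strains. Every ASV whose taxonomy string named the family and that had at least 1 count over the 15 libraries was taken, which gave 51 of the 507 ASVs with counts. They held 43201 of 1403011 counts, or 3.08%. Another 261 of the 312 rows that the table gave to the family were at 0 in all libraries. The table pairs ASVs with names and counts only, so ASVs are called by their rank in total count.

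The mice were Gpr15l-/- littermates. GPR15L is a peptide that attracts lymphocytes carrying the receptor GPR15 to the gut and that has also been described as an antimicrobial peptide. All mice received dextran sulfate sodium (DSS), which injures the colonic epithelium, and either recombinant human GPR15L given rectally or sterile PBS, every day between day 3 and day 9. The groups were GPR15L after DSS (4 libraries, numbers 8 to 11), PBS after DSS (4 libraries, numbers 12 to 15), GPR15L before DSS (3 libraries, numbers 1 to 3) and PBS before DSS (3 libraries, numbers 4 to 6). Library 7 was in no group because its title gives a time that its place among the library names does not match. The libraries before DSS were taken before any peptide or placebo was given. No wild-type mice were among the groups, titles name the knockout as Gpr15-/- where the series text names Gpr15l, the labels call all mice male although the design text mentions both sexes, and no source used here gives their strain or age. Mice were kept 3 to 4 to a cage and no label gives a cage, so cage and arm cannot be told apart. The time of sampling, and the arm within each time, run with the order of library names. No label names a batch, so time or arm and anything that follows this order cannot be told apart either. No label ties a library after DSS to a library before DSS, so after against before DSS compares groups of libraries, and which of them came from the same mice is not known.

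Totals lay between 53417 and 144379 counts with GPR15L after DSS, between 50041 and 67860 with PBS after DSS, between 62726 and 197433 with GPR15L before DSS and between 48847 and 162266 with PBS before DSS. Where a whole group had no count, its share could still be 0.000912%, 0.00128%, 0.000912% or 0.000872% in these groups, the limit set by 3 counts of the summed total. This covers counting error only. All values are shares of a library's counts, so more cells of a bacterium and fewer cells of the others cannot be told apart. The labels do not say more about how independent the mice were, so p-values measure the spread between these libraries. Libraries 6 and 7 stood apart from all others in this family, with 62 and 23 counts of it.

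Members of the family ferment carbohydrates or amino acids to short-chain fatty acids and are counted among the oxygen-sensitive bacteria of a healthy colon. Oscillibacter is known for valerate as an end product, Intestinimonas for making butyrate from sugars and from lysine, and Oscillospira for large cells seen under the microscope long before any culture. Colidextribacter is a genus described from the human gut. A genus was named for 29 of the 51 ASVs. Intestinimonas held 10 ASVs and 16.1% of the family's counts, Colidextribacter 8 ASVs and 35.0%, and Oscillibacter 8 ASVs and 22.6%. Oscillospira, UCG-003 and UCG-005 had 1 ASV each. The other 22 ASVs had no named genus, 10 of them listed as Incertae Sedis, and held 26.0% of the family's counts. The 8 most abundant members together held 62.6% of the family's counts, 10 members appeared in a single library and 8 members had under 10 counts in all.

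After DSS the share of the family as a whole overlapped between the arms, while fewer of its members were found with GPR15L. The family made up 5.70%, 4.93%, 2.55% and 1.93% of counts with GPR15L after DSS, against 3.68%, 2.10%, 9.76% and 5.11% with PBS after DSS. The means were 3.78% ± 1.82 and 5.16% ± 3.30 (SD, n = 4 each), and the ranges overlapped. Before DSS the shares were 0.837%, 5.33% and 2.12% in the GPR15L arm, against 4.67%, 3.72% and 0.0466% in the PBS arm. The difference of -1.39 percentage points after DSS became 0.146 without library 14, which held the highest share. No test was run on the family's share, since it is a sum over chosen members.

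At an equal depth of 48847 counts, 18.8, 17.9, 16.0 and 12.0 members were found with GPR15L after DSS, against 27, 20, 32 and 29 with PBS after DSS. Every GPR15L library lay below every PBS library, with means of 16.2 ± 3.01 and 27.0 ± 5.10 members (SD, n = 4 each). Over whole groups the gap was smaller, with 27 members found in any GPR15L library and 33 in any PBS library after DSS. The number of ASVs of all families found per library was not set beside these values. Whether the difference is particular to this family was therefore not tested. Before DSS the counts of members were 18, 28 and 19 in the GPR15L arm, against 33, 24 and 3 in the PBS arm, and these ranges overlapped. Library 7 had 2.57 members. With it placed with PBS after DSS, at the time its title gives, the difference after DSS was -5.95 members in place of -10.8 and the ranges overlapped. The title gives no arm. A placement with PBS before DSS was not tried.

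**Figure D1:**
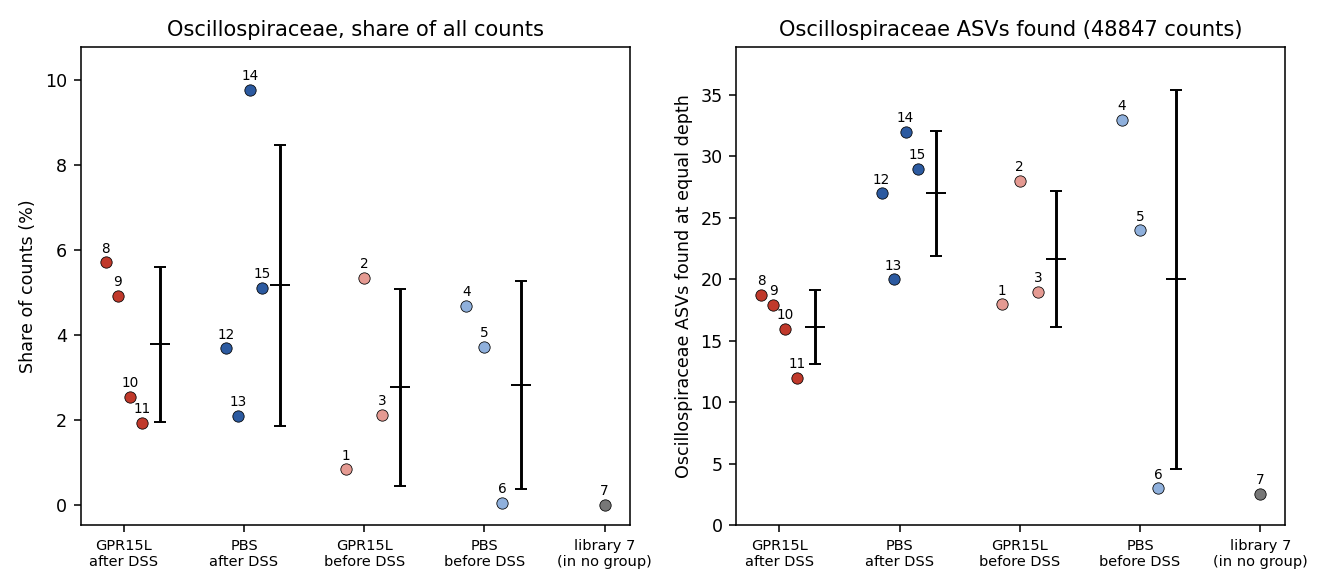
Share of all counts held by Oscillospiraceae in percent (left) and number of its 51 members found at an equal depth of 48847 counts (right), by group; each point is a numbered library and bars give the mean and SD. After DSS the GPR15L libraries sit between 12.0 and 18.8 members and the PBS libraries between 20 and 32, while the shares of the arms overlap.

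The family was also less even with GPR15L after DSS. Its most abundant member held 27.3% ± 1.57 of the family's counts there, against 12.0% ± 1.62 with PBS after DSS (SD, n = 4 each). That member was ASV47 of Colidextribacter in libraries 8 and 9 and ASV60 of Oscillibacter in libraries 10 and 11. With PBS after DSS it was ASV95, ASV60, ASV76 and ASV47 in libraries 12 to 15, a different ASV in each. Before DSS the leading member held 15.8% ± 2.94 with GPR15L and 25.4% ± 14.5 with PBS (SD, n = 3 each), and the PBS value includes 41.9% in library 6, with its 62 counts of the family. The Shannon index within the family (natural log) was 2.14 ± 0.17 with GPR15L and 2.92 ± 0.13 with PBS after DSS (SD, n = 4 each), and 2.65 ± 0.15 and 2.25 ± 1.02 before DSS (SD, n = 3 each). Library 7, with 23 counts of the family, had a leading member at 52.2% and a Shannon index of 0.972. With it placed as titled, the PBS means after DSS were 20.03% for the leading member and 2.53 for the Shannon index, and the ranges of the arms overlapped.

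Bray-Curtis distances over the family's own make-up, which run between 0 for equal shares and 1 for no shared member, were larger between the arms after DSS than within either arm. The median distance between the arms after DSS was 0.633 (0.515 to 0.794 over 16 pairs), above every distance within GPR15L after DSS (0.174 to 0.35 over 6 pairs) and within PBS after DSS (0.269 to 0.367 over 6 pairs). GPR15L libraries after DSS lay at a median of 0.626 from those before DSS (0.549 to 0.70 over 12 pairs). PBS libraries after DSS lay at a median of 0.474 from those before DSS (0.357 to 0.908 over 12 pairs) and at 0.395 from the GPR15L libraries before DSS (0.306 to 0.504 over 12 pairs). Between the arms before DSS the median distance was 0.488 (0.305 to 0.857 over 9 pairs). These distances overlapped those within the GPR15L arm before DSS (0.247 to 0.393 over 3 pairs) and within the PBS arm before DSS (0.36 to 0.85 over 3 pairs). The median within the PBS arm before DSS, 0.84, was above the median of 0.633 between the arms after DSS. The library in no group was not part of the distances. All these distances share libraries and are given as a description.

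The genus make-up of the family is given as a description, with no test. Colidextribacter held 43.2%, 42.4%, 45.3% and 50.2% of the family's counts with GPR15L after DSS, against 31.7%, 29.1%, 23.6% and 31.5% with PBS after DSS. Every GPR15L library was above every PBS library. Intestinimonas held 5.56%, 8.32%, 9.69% and 3.01% of the family with GPR15L, against 18.5%, 16.7%, 27.7% and 13.0% with PBS after DSS, again without overlap and with GPR15L below. Library 7 had 0 of both genera, so with it placed as titled the overlap of Intestinimonas returned. Before DSS the GPR15L arm had 51.9%, 40.8% and 41.7% Colidextribacter, against 26.3%, 26.5% and 41.9% in the PBS arm, and 7.56%, 20.2% and 15.6% Intestinimonas, against 20.6%, 33.8% and 0 in the PBS arm. Colidextribacter thus took more of the family in every GPR15L library than in libraries 4 and 5 before DSS too, while library 6, with its 62 counts, lay among the GPR15L libraries. Oscillibacter held 22.7% ± 7.13 of the family with GPR15L and 23.0% ± 6.14 with PBS after DSS (SD, n = 4 each).

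**Figure D2:**
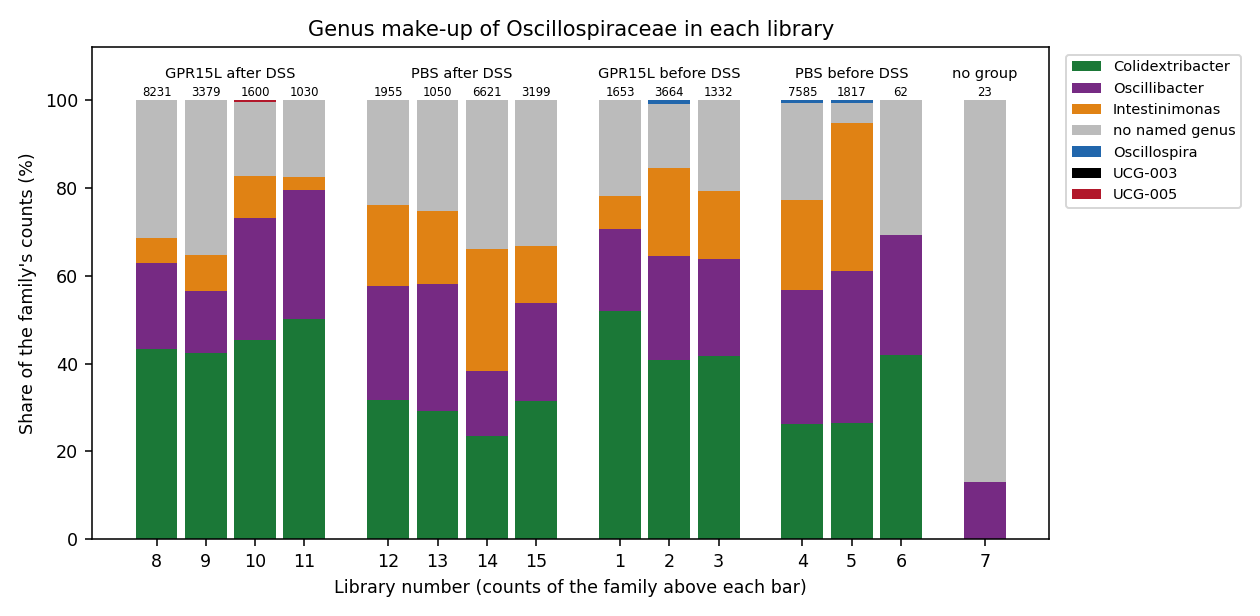
Make-up of Oscillospiraceae by genus as percent of the family's counts in each library, with the family's counts above each bar. Colidextribacter takes 42.4% to 50.2% of the family in GPR15L libraries after DSS and 23.6% to 31.7% in PBS libraries after DSS; libraries 6 and 7 rest on 62 and 23 counts.

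As shares of all counts, no genus of the family passed the 0.05 threshold in any comparison. Counts were summed per genus over the whole table and compared by edgeR's quasi-likelihood test with Benjamini-Hochberg adjustment over 78 genera, of which 5 belonged to this family (the ASVs without a named genus counting as 1). Of the family's 25 tests over 5 comparisons, 0 passed and 3 had an unadjusted p under 0.05. Over all genera, 14.1% passed this test between the arms after DSS, 0 between the arms before DSS and 10.3% over DSS in the GPR15L arm. Another 5.13% passed over DSS in the PBS arm and 3.85% in the interaction of arm and time. DESeq2 and limma voom each called 1 genus of the family, after against before DSS in the PBS arm. The shares of all genera that these tools called are not given. Colidextribacter averaged 1.67% ± 0.721 with GPR15L and 1.42% ± 0.713 with PBS after DSS (SD, n = 4 each; edgeR adjusted p = 0.998). Intestinimonas averaged 0.258% ± 0.149 and 1.10% ± 1.08 (SD, n = 4 each; edgeR adjusted p = 0.306), and without library 14 its PBS mean was 0.564%. Oscillospira, represented by ASV291, was at 0 in all 8 libraries after DSS and reached 0.0480% in library 2 and 0.0296% and 0.0225% in libraries 4 and 5 before DSS.

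The arms after DSS differed in which members were there. With GPR15L after DSS, 24 of the 51 members were at 0 in all 4 libraries, or 47.1%, against 52.9% of all 507 ASVs. Of these, 19 were found with PBS after DSS, or 37.3% of members, against 22.3% of all ASVs. In the other direction, 13 members were found with GPR15L and in no library with PBS after DSS, or 25.5%, against 21.1% of all ASVs. Another 14 members (27.5%, against 26.0% of all ASVs) were found in both arms after DSS, and 5 (9.80%, against 30.6%) in neither. The larger part of all ASVs found in neither arm lowers their shares in the other patterns. The shares were not corrected for this. Only ASV47, ASV60, ASV64 and ASV69 were found in all 8 libraries after DSS.

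The 19 members found with PBS and not with GPR15L after DSS made up between 28.6% and 41.7% of the family's counts in each PBS library after DSS, and between 22.8% and 33.1% in the GPR15L libraries before DSS. They made up 39.1% and 47.3% in libraries 4 and 5 of the PBS arm before DSS and 0 in library 6. Of the 24 members at 0 with GPR15L after DSS, 15 were found in the GPR15L arm before DSS (29.4% of members, against 29.6% of all ASVs). Found in all 3 other groups were 10 of the 24 (19.6% of members, against 9.47% of all ASVs). The 13 members found with GPR15L and not with PBS after DSS made up between 13.0% and 28.9% of the family's counts with GPR15L after DSS, and 11 members were found with GPR15L after DSS and in none of the other 3 groups (21.6%, against 15.4% of all ASVs).

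**Figure D3:**
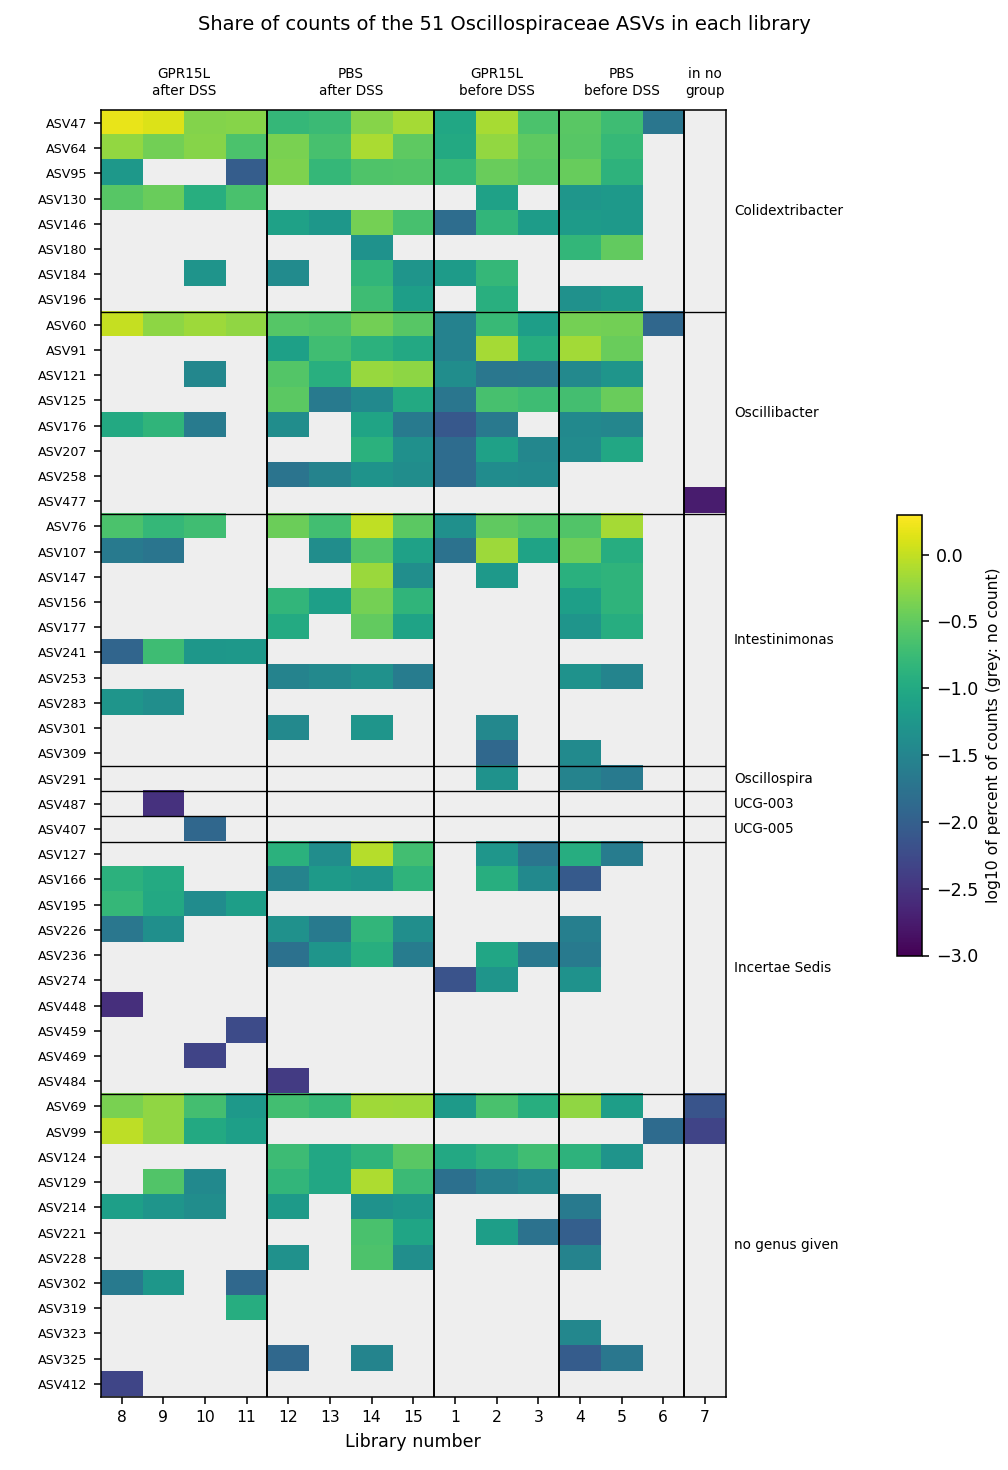
Share of counts of each of the 51 members in each library, as log10 of percent (colour) with grey for no count; rows are grouped by genus and columns by group. The 24 rows that are grey in all 4 GPR15L libraries after DSS include 19 with colour in the PBS libraries after DSS.

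Between the arms after DSS, 17 of the 39 members that could be tested differed, 5 higher and 12 lower with GPR15L (edgeR's quasi-likelihood test with Benjamini-Hochberg adjustment over all 282 ASVs tested, threshold 0.05). That is 43.6% of the tested members, against 28.0% of all ASVs tested (10.6% higher, 17.4% lower). The 39 had at least 10 counts in all and were found in 3 or more of the 14 libraries compared, and the other 12 members were not tested. By genus, Oscillibacter had 4 lower and 0 higher of 7 tested, Intestinimonas 3 lower and 1 higher of 8, Colidextribacter 1 lower and 1 higher of 8, and the ASVs without a named genus 4 lower and 3 higher of 15. Counts of calls carry a limit of the filter. Of the 5 higher members, ASV99, ASV195, ASV241 and ASV302 passed it only through the libraries of the arm where they were high. The same held for ASV156, ASV177, ASV228 and ASV253 of the 12 lower. ASV195, ASV241 and ASV302 had no count in any other group, so they could enter the test only as different. For the others the filter favoured a difference. Passing only through the high arm also held for 39 of the 79 calls over all ASVs. With the filter applied to the libraries before DSS alone, a choice made after seeing the data, 25 members were left. Those libraries are not compared here but add to the shared estimate of the spread. The adjusted p-values over all 282 ASVs were kept. Of the 25 members 9 were called, 1 higher and 8 lower, or 36.0%, against 20.4% of the 196 ASVs left in all. The median difference of the 39 tested members, given as a description, was -3.69 on the log2 scale, against 0 over all ASVs tested. With a group at 0 entered at its limit of 3 counts, the medians were -3.74 and -0.44. Each of the 17 was at 0 in all libraries of 1 arm, so their differences are given as lower bounds, the mean share over the limit that 3 counts of the other group's summed total allow.

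Among the Oscillibacter ASVs, ASV91 had no count with GPR15L after DSS, against 0.0754%, 0.192%, 0.131% and 0.0974% with PBS after DSS. It was thus at least 136-fold lower (edgeR adjusted p = 0.0151). It had been found at 0.0289%, 0.715% and 0.115% in the GPR15L arm before DSS. ASV125 was at 0 with GPR15L, against 0.294%, 0.0220%, 0.0368% and 0.101% with PBS after DSS, at least 124-fold lower (edgeR adjusted p = 0.0178). Its PBS mean of 0.113% was 0.0531% without library 12. These members were present in every PBS library and missing from every GPR15L library after DSS.

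ASV258, a rare Oscillibacter chosen here through its interaction of arm and time described further on, was at 0 with GPR15L, against 0.0188%, 0.0300%, 0.0501% and 0.0415% with PBS after DSS (at least 39-fold lower, edgeR adjusted p = 0.0182). ASV207 was at 0 with GPR15L and was found in libraries 14 and 15 alone of the PBS libraries, at 0.130% and 0.0447% (at least 48-fold lower, edgeR adjusted p = 0.0481). Its groups overlapped at 0, and its PBS mean of 0.0436% was 0.0149% without library 14. The most abundant member of the genus, ASV60, did not pass. It was at 1.02%, 0.548%, 0.651% and 0.565% with GPR15L, against 0.268%, 0.244%, 0.395% and 0.278% with PBS after DSS. Every GPR15L library was above every PBS library, with a log2 difference of 1.60 ± 0.95 (SE, edgeR adjusted p = 0.214). ASV121, chosen after its values were seen, was found in 1 GPR15L library at 0.0335%, against 0.260%, 0.120%, 0.612% and 0.548% with PBS after DSS, and did not pass (log2 difference -4.78 ± 2.06, SE, edgeR adjusted p = 0.0831).

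In Intestinimonas 3 ASVs were lower and 1 higher with GPR15L after DSS. ASV156 was at 0 with GPR15L, against 0.149%, 0.0739%, 0.408% and 0.144% with PBS after DSS (at least 212-fold lower, edgeR adjusted p = 0.0182). ASV177 was at 0 with GPR15L, against 0.104%, 0, 0.318% and 0.0815% with PBS after DSS (at least 138-fold lower, edgeR adjusted p = 0.0341). ASV253, chosen after its values were seen, was at 0 with GPR15L, against 0.0301%, 0.0360%, 0.0472% and 0.0240% with PBS after DSS (at least 38-fold lower, edgeR adjusted p = 0.0289). None of these 3 ASVs had a count in the GPR15L arm before DSS, while all 3 were found in libraries 4 and 5 of the PBS arm before DSS. All 3 passed the filter only through the PBS libraries after DSS, which favoured a difference. Without library 14, the PBS mean after DSS was 0.122% in place of 0.194% for ASV156 and 0.0617% in place of 0.126% for ASV177. In the opposite direction, ASV241 had 0.0118%, 0.191%, 0.0558% and 0.0580% with GPR15L after DSS and no count in any other group (at least 62-fold higher than with PBS after DSS, edgeR adjusted p = 0.0239). It could enter the test only as different, so its p-value is no evidence of a difference. Its GPR15L mean of 0.0791% was 0.0419% without library 9. The most abundant Intestinimonas, ASV76, had 0.229%, 0.157%, 0.191% and 0 with GPR15L, against 0.362%, 0.198%, 0.978% and 0.292% with PBS after DSS, and did not pass (log2 difference -1.23 ± 1.54, SE, edgeR adjusted p = 0.669).

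In Colidextribacter 1 ASV was higher and 1 lower with GPR15L after DSS. ASV130 was at 0.276%, 0.347%, 0.118% and 0.223% with GPR15L after DSS and at 0 with PBS after DSS, at least 188-fold higher (edgeR adjusted p = 0.0194). It had been found in library 2 of the GPR15L arm (0.0771%) and libraries 4 and 5 of the PBS arm (0.0542% and 0.0594%) before DSS. ASV146 was at 0 with GPR15L, against 0.0772%, 0.0560%, 0.405% and 0.217% with PBS after DSS, at least 207-fold lower (edgeR adjusted p = 0.0114). Its PBS mean of 0.189% was 0.117% without library 14. ASV95 had 0.0582%, 0, 0 and 0.00936% with GPR15L, against 0.458%, 0.158%, 0.243% and 0.254% with PBS after DSS. The groups did not overlap, yet the log2 difference of -3.69 ± 1.80 did not pass (SE, edgeR adjusted p = 0.123). The GPR15L mean of ASV95 was 0.0169%, and 0.00312% without library 8.

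The leading members of Colidextribacter had counts in every library of both arms after DSS. ASV47 was at 1.54%, 1.34%, 0.483% and 0.504% with GPR15L, against 0.156%, 0.178%, 0.505% and 0.711% with PBS after DSS, with overlap (log2 difference 1.61 ± 0.92, SE, edgeR adjusted p = 0.198). ASV64 was at 0.591%, 0.401%, 0.504% and 0.232% with GPR15L, against 0.437%, 0.220%, 0.760% and 0.307% with PBS after DSS. Its means of 0.432% ± 0.154 and 0.431% ± 0.237 (SD, n = 4 each) were the closest of the 8 most abundant members (edgeR adjusted p = 0.936).

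Among the ASVs without a named genus, ASV99 had the highest mean share of the 5 that were higher with GPR15L. It was at 0.943%, 0.566%, 0.10% and 0.0730% with GPR15L after DSS and had no count with PBS after DSS, at least 327-fold higher (edgeR adjusted p = 0.0170). It passed the filter only through these GPR15L libraries, which favoured a difference. Its GPR15L mean of 0.421% ± 0.415 (SD, n = 4) was 0.246% without library 8. Outside this group it appeared only in library 6 of the PBS arm before DSS (0.0143%) and in library 7 (0.00478%). ASV69, by contrast, was found in all 8 libraries after DSS, at 0.436%, 0.558%, 0.204% and 0.0599% with GPR15L and at 0.200%, 0.162%, 0.684% and 0.647% with PBS (edgeR adjusted p = 1). The sign of its difference turned without the filter on low counts, with library 7 placed as titled and with the arms after DSS fitted alone. It also turned without library 4, 11, 14 or 15 (log2 difference of 0.0048 to 0.67 without 1 of these) and without libraries 6 and 14 together.

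ASV124, without a genus, was at 0 with GPR15L, against 0.181%, 0.0959%, 0.144% and 0.286% with PBS after DSS, at least 194-fold lower (edgeR adjusted p = 0.00852). It had been in all 3 libraries of the GPR15L arm before DSS, at 0.0972%, 0.137% and 0.193%. ASV127, of Incertae Sedis, was at 0 with GPR15L, against 0.128%, 0.0420%, 0.858% and 0.203% with PBS after DSS, at least 337-fold lower (edgeR adjusted p = 0.0178). Its PBS mean of 0.308% was 0.124% without library 14. ASV195, of Incertae Sedis, had 0.159%, 0.0991%, 0.0399% and 0.0711% with GPR15L after DSS and no count in any other group, at least 72-fold higher than with PBS (edgeR adjusted p = 0.0202). The other ASVs of these ranks that passed were rarer. ASV228 was at least 89-fold lower (edgeR adjusted p = 0.0477) and ASV236 at least 57-fold lower (edgeR adjusted p = 0.0353), with PBS means of 0.0815% and 0.0523% that were 0.0301% and 0.0310% without library 14. ASV302 was found in 3 of 4 GPR15L libraries, which made it at least 18-fold higher (edgeR adjusted p = 0.050, just inside the threshold). Its GPR15L mean of 0.0227% was 0.0118% without library 9. ASV195 and ASV302 could enter the test only as different, so their p-values are no evidence of a difference. ASV228 passed the filter only through the PBS libraries after DSS, which favoured a difference.

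**Figure D4:**
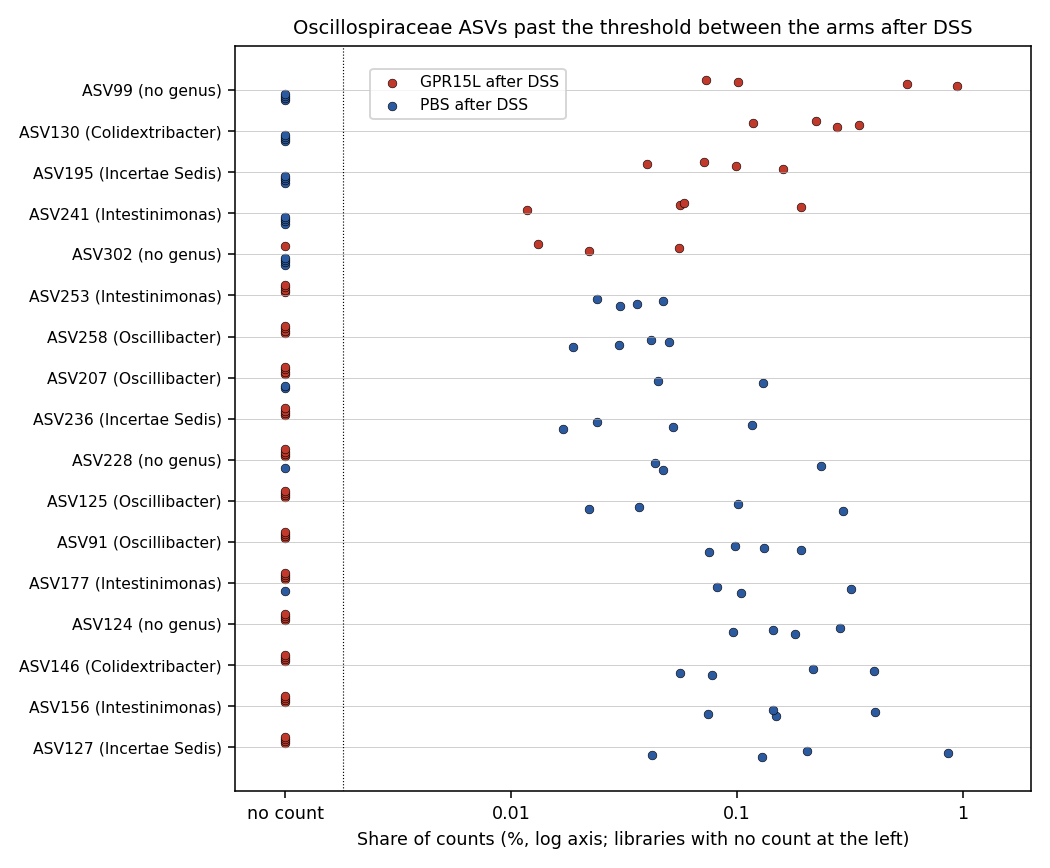
Share of counts in percent (log axis, no count at the left) of the 17 members that passed between the arms after DSS, 1 row each; red points are the 4 GPR15L libraries and blue points the 4 PBS libraries. In all 17 rows every library of 1 arm is at no count; in 4 rows of the higher and 9 of the lower members every library of the other arm has the ASV.

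Found in every PBS library and in no GPR15L library after DSS were 9 of the 51 members, or 17.6%, against 8.09% of all 507 ASVs. Found in every GPR15L library and in no PBS library were 4 members (ASV99, ASV130, ASV195 and ASV241), or 7.84%, against 3.55% of all ASVs. ASVs found in few libraries cannot show these patterns, and members were less often rare. Of the members 39 of 51 were past the filter on counts, against 282 of all 507 ASVs. Whether this bears on the shares was not tested. Library 7 holds none of the 9, so with it placed with PBS after DSS their number was 0, and the 4 became 3 because ASV99 has counts in it.

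Of the 17 calls after DSS, 9 held in every alternative that gave them a value, those of ASV91, ASV99, ASV124, ASV125, ASV127, ASV130, ASV146, ASV156 and ASV195, of which ASV99, ASV156 and ASV195 are among those that passed the filter only through 1 arm. The 8 others were lost in at least 1, with adjusted p-values of up to 0.0525 (ASV241), 0.0741 (ASV177), 0.0787 (ASV236), 0.0936 (ASV228), 0.0992 (ASV207), 0.102 (ASV258), 0.108 (ASV253) and 0.222 (ASV302). ASV258 lost its call only without the filter on low counts, and ASV241 only without library 14 or without library 15. The number of members called was 11 without library 8, 9, 11 or 15, 10 without library 14 and 12 with library 7 placed as titled.

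Before DSS, 0 of the 39 tested members differed between the arms that were later to receive GPR15L or PBS in edgeR's quasi-likelihood test with Benjamini-Hochberg adjustment, against 1.77% of all ASVs tested. An unadjusted p under 0.05 was reached by 10 of the 39 members, against 50 of all 282 ASVs tested. DESeq2 called 3 members and limma voom 1, and the shares of all ASVs that these tools called are not given. ASV129 (without a genus) and ASV258 were found in all 3 libraries of the GPR15L arm and in none of the PBS arm, as were 1.58% of all ASVs. ASV129, chosen after its values were seen, was at 0.0167%, 0.0277% and 0.0351% there, and ASV258 at 0.0147%, 0.0408% and 0.0383%. Library 6, which held 3 members of the family, carried neither of them.

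Over the course of DSS in the GPR15L arm, 12 of 39 tested members differed, 4 higher and 8 lower after DSS (edgeR's quasi-likelihood test, adjusted over all 282 ASVs), or 30.8%, against 28.4% of all ASVs tested (8.87% higher, 19.5% lower). This comparison shares the GPR15L libraries after DSS with the comparison of the arms. ASV60 of Oscillibacter rose, at 1.02%, 0.548%, 0.651% and 0.565% after DSS, against 0.0289%, 0.169% and 0.0701% before DSS. The mean was 7.80-fold higher after DSS, with a log2 difference of 3.27 ± 1.14 (SE, edgeR adjusted p = 0.0484), and without library 2 its mean before DSS was 0.0495% in place of 0.0893%. The other higher ASVs had no count in the GPR15L arm before DSS: ASV99 (at least 461-fold, edgeR adjusted p = 0.0288), ASV195 (at least 101-fold, 0.0376) and ASV241 (at least 87-fold, 0.0464). These 3 passed the filter only through the libraries after DSS of this arm.

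The 8 lower members were in the GPR15L arm before DSS and had no count in it after DSS. ASV91 was at least 314-fold lower (edgeR adjusted p = 0.0120) and ASV124 at least 156-fold lower (edgeR adjusted p = 0.0106). ASV125 was at least 156-fold lower (edgeR adjusted p = 0.0207), ASV146 at least 84-fold (0.0207) and ASV258 at least 34-fold (0.0248). ASV207 was at least 46-fold lower, ASV236 at least 40-fold and ASV127 at least 27-fold. These 3 each had an edgeR adjusted p of 0.0484, just inside the threshold. Their calls were lost in 16 (ASV207), 17 (ASV236) and 18 (ASV127) alternatives. ASV127 and ASV236 were missing from library 1 before DSS. Without library 2 the mean before DSS was 0.0718% in place of 0.286% for ASV91, 0.0411% in place of 0.0769% for ASV146, 0.0241% in place of 0.0418% for ASV207, 0.0104% in place of 0.0365% for ASV236 and 0.00957% in place of 0.0243% for ASV127.

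The calls over DSS in the GPR15L arm held in all alternatives that gave a value for 2 of 12 members (ASV91 and ASV124). The 10 others reached adjusted p-values of 0.0549 (ASV125 and ASV146) to 0.166 (ASV60) in the alternative least favourable to each. The number of calls was 7 without library 1, 12, 13 or 15, 5 without library 2, 4 without library 3, 2 without library 8 or 9, and 6 without library 10 or 11.

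Over the course of DSS in the PBS arm, 0 of 39 tested members passed in edgeR's quasi-likelihood test, against 4.26% of all ASVs tested. An unadjusted p under 0.05 was reached by 8 of the 39 members, against 89 of all 282 ASVs tested. DESeq2 called 3 members and limma voom 4, again without the shares of all ASVs that these tools called. Library 6 bore on this comparison, since the family was at 4.67% and 3.72% in the other libraries of the PBS arm before DSS and at 0.0466% in it. Without library 6 the number of calls was 0 as well, here and between the arms before DSS. Of the members found with PBS before DSS, 6 had no count with PBS after DSS (11.8% of members, against 26.6% of all ASVs). In the GPR15L arm 15 members were found before and not after DSS (29.4%, against 29.6% of all ASVs). Members found after and not before DSS numbered 5 in the PBS arm (9.80%, against 11.6% of all ASVs) and 14 in the GPR15L arm (27.5%, against 21.7%). No test of these differences was run.

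A test of the interaction asked whether the change over DSS differed between the arms, and 4 of 39 tested members passed, 1 higher and 3 lower in the GPR15L arm, or 10.3%, against 9.93% of all ASVs tested, 3.55% higher and 6.38% lower (edgeR's quasi-likelihood test with Benjamini-Hochberg adjustment). ASV258 had the lowest adjusted p, 0.00802. Its mean share was 0 after and 0.0312% before DSS in the GPR15L arm, and 0.0351% after and 0 before DSS in the PBS arm, so each arm had it at 1 time only. ASV124 averaged 0 after and 0.142% before DSS in the GPR15L arm, and 0.177% after and 0.0627% before DSS in the PBS arm (edgeR adjusted p = 0.0165). Its mean before DSS in the PBS arm was 0.0256% without library 4. ASV146 averaged 0 after and 0.0769% before DSS in the GPR15L arm, and 0.189% after and 0.0420% before DSS in the PBS arm (edgeR adjusted p = 0.0286).

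ASV99 was the 1 member with a higher change over DSS in the GPR15L arm (edgeR adjusted p = 0.0165). ASV99 passed the filter only through the GPR15L libraries after DSS, where it was high. It averaged 0.421% after and 0 before DSS in the GPR15L arm, and 0 after and 0.00476% before DSS in the PBS arm. The value before DSS in the PBS arm was 19 counts of library 6, and without that library the call was lost (adjusted p = 1). The call of ASV258 held in all alternatives, with adjusted p-values of up to 0.0460. That of ASV124 was lost without library 5 and with library 7 placed as titled, and that of ASV146 without library 3, 4, 5, 8, 14 or 15 and with library 7 as titled, with adjusted p-values of up to 0.0742 and 0.0919. The number of calls was 2 without library 5 and 7 without library 6.

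Relatives of the family gave other counts between the arms after DSS in the same edgeR fit. Of the Lachnospiraceae, another large family of Clostridia, 14 of 100 tested ASVs were higher and 11 lower with GPR15L. Of the other families of Oscillospirales, 1 of 20 was higher and 4 lower. In the Clostridia vadinBB60 group 0 of 13 were higher and 10 lower. In the Muribaculaceae, a family of Bacteroidales abundant in mice, 2 of 42 were higher and 9 lower. No test of the difference between these families was run.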

How the data were processed

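Stool DNA was the template (10 ng, 25 PCR cycles) for the V4 part of the 16S rRNA gene, read in pairs of 151 bases on an Illumina MiSeq, per the labels. The authors deposited a table of whole read counts, 1 row per ASV. Its name points to DADA2. No source used here states the DADA2 version, the filtering of reads or which taxonomy database named the ASVs. The submitters' processing notes list R 4.5.1 and limma and do not say what they were used for.

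The members and lists were chosen with earlier results of these data known. Of 3697 rows, 507 had counts. ASVs, and counts summed into 109 genera or lowest named ranks, entered the tests if they had 10 or more counts and were found in 3 or more libraries: 282 ASVs with 99.0% of the counts, and 78 genera. All 4 groups (14 libraries, 48847 to 197433 counts over all 15) were fitted together in edgeR 4.0.16 (R 4.3.3) with TMMwsp scaling, glmQLFit and glmQLFTest, and Benjamini-Hochberg adjustment over all features tested. SEs were calculated back from the F statistic. The fit was also run on simulated counts with set changes in both directions. Those changes did not put a whole arm at 0, as in the calls after DSS, so that run does not bear on these calls. Sums and indices over the family were given without a test. Named were the 8 members with the highest total, up to 10 each way past 0.05 in a comparison by log2 difference, and every genus; others are marked in the text. Alternatives were TMM, total counts alone, DESeq2 1.42.0, limma voom 3.58.1, no filter on counts, a mean share of at least 0.1%, the compared groups alone, library 7 as titled and each library left out. The newer form of edgeR's quasi-likelihood fit, leaving out libraries 6 and 14 together, and the filter on the libraries before DSS alone were added after seeing the data. The counts of no 2 libraries of a group agreed within sampling noise (chi-square per degree of freedom of at least 35.2), so none was counted as a repeat.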

Additional observations from a re-analysis of the deposited data

Results flagged for a closer look

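The change over DSS differed between the arms by a test of the difference itself for 4 members (edgeR's quasi-likelihood test, interaction of arm and time). That is 10.3% of tested members, close to the 9.93% of all ASVs tested. The adjusted p-values were 0.00802 for ASV258, 0.0165 for ASV124, 0.0165 for ASV99 and 0.0286 for ASV146. ASV99 passed the filter only through the GPR15L libraries after DSS, where it was high, and its call rests on 19 counts in library 6. The call of ASV146 was lost in 7 of its alternatives.

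In 4 of 44 group values tested, 1 library lay far from the other 3 of its group. Chance gives about 1 in 20 for values that vary freely, which does not hold for the pair below with 3 libraries at 0. With GPR15L after DSS, ASV95 was at 0.0582% in library 8, against 0.00936% in the next highest library. UCG-003 was at 0.00292% in library 9 and UCG-005 at 0.0128% in library 10, each with no count in the other 3 libraries. With PBS after DSS, Intestinimonas was at 2.70% in library 14, against 0.680% in the next highest library.

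Library 7, which is in no group, held ASV99 at 0.00478% (8 counts), while the 4 PBS libraries after DSS had no count of it.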

How the results depend on the processing

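No paired analysis was possible because each number in the labels occurs once and none links a library to another. Between the arms after DSS, 17 members passed. The count was 12 with library 7 as titled, 5 higher and 7 lower, and 12 of 50 tested without the count filter. DESeq2 called 20 and limma voom 19. The count was 4 with the filter on a mean share of 0.1%, which left fewer ASVs to test. It was 9 among the 25 members past the filter in the libraries before DSS, and 10 to 18 with each library left out. Over DSS in the GPR15L arm 12 passed, 5 without the count filter, 5 with the share filter and 5 with library 7 as titled, and 2 to 13 with each library left out. Before DSS, 0 passed between the arms, 3 with DESeq2 and 1 with limma voom, and 0 with each library left out. Over DSS in the PBS arm 0 passed, 3 with DESeq2, 4 with limma voom, 2 without the count filter, 1 with the share filter, 1 with the groups compared alone, 2 with the newer quasi-likelihood form, and 0 to 1 with each library left out. In the interaction 4 passed, 11 with DESeq2, 15 with limma voom and 8 without the count filter. DESeq2 gave no adjusted p for 5 of the 39 members there. The number was 2 with library 7 as titled, 7 without libraries 6 and 14 together, 7 with the newer form, and 2 to 7 with each library left out. The share of all ASVs called is not given for the other tools and settings. Their counts thus do not measure the family against all ASVs. The cause of these moves was not tested unless named.

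The difference in members found after DSS (-10.8) was -5.95 with library 7 as titled and -13.2 to -9.17 with each library left out. The difference in the family's share (-1.39 percentage points) was -2.41 to 0.146 with each library left out. Members found in every PBS and no GPR15L library after DSS numbered 9, and 0 with library 7 as titled.

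Signs turned for members that did not pass. The log2 difference of ASV64 after DSS was 0.43, and -0.17 under TMM. That of ASV69 was -0.16, and 0.086 without the count filter, 0.35 with the groups compared alone, 0.15 with library 7 as titled, 0.67, 0.16, 0.0048 and 0.16 without library 4, 11, 14 or 15 (range with each library left out -0.44 to 0.67), and 0.0050 without libraries 6 and 14 together. TMM moved the median of all ASVs by -0.08 between the arms after DSS and by -0.20 over DSS in the GPR15L arm. Before DSS the median over all ASVs between the arms was -0.37, -0.43 with TMM and -0.51 with total counts alone. The groups of 3 or 4 libraries, the unknown cages and library 6, with 62 counts of the family, limit every comparison.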

Other observations

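Of the 12 members that could not be tested, 10 appeared in a single library and none exceeded 0.114% of a library's counts. ASV319, without a genus, reached that level in library 11 of the GPR15L arm after DSS and was at 0 elsewhere. ASV283 of Intestinimonas was at 0.0533% and 0.0423% in libraries 8 and 9 of the GPR15L arm after DSS and at 0 elsewhere. Library 7, which was placed in no group here, had 23 counts of the family in 167329, or 0.0137%, spread over 3 members. ASV69 was at 0.00717% there, ASV99 at 0.00478% and ASV477 of Oscillibacter, found in this library alone, at 0.00179%.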
